A study of Mus musculus with 26 samples.

Results

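The unfolded protein response and the integrated stress response were followed through 42 genes. They were chosen by name, as known components and targets of these pathways, but with earlier results of these data known. Counts of them beside the share of all genes are therefore a description and not an independent test. The 42 genes were looked up by gene symbol in the 3 deposited count tables. All 42 were found in each table, among 40481 genes in each mouse table and 55093 genes in the human table. By role, 14 are chaperones and folding enzymes of the endoplasmic reticulum (ER), 4 are sensors of the unfolded protein response or transcription factors downstream of them, and 5 act in translocation into the ER or in ER-associated degradation. These 23 are called unfolded protein response genes here. The other 19 are called integrated stress response genes: 9 regulators, 8 enzymes of amino acid and one-carbon metabolism, and 2 aminoacyl-tRNA synthetases.

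The unfolded protein response is set off when unfolded proteins build up in the ER. Ern1 (IRE1) splices the mRNA of Xbp1, Atf6 is cut to release a transcription factor, and Eif2ak3 (PERK) phosphorylates the initiation factor eIF2, and the outcome is more chaperones, more degradation and less protein synthesis. The integrated stress response starts from that same phosphorylation of eIF2, by Eif2ak3 or by kinases that sense amino acid shortage, haem or double-stranded RNA, and favours translation of Atf4, which drives genes of amino acid supply. In the small intestine the secretory Paneth and goblet cells carry a large ER and depend on the Xbp1 branch.

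RNA was sequenced in 26 libraries of a study of Fgfr1op, a gene whose protein sits at the centrosome. Small intestinal spheroids, epithelial cultures in Matrigel and L-WRN conditioned medium, came from Fgfr1op KO and WT mice, 4 mice in each group, at day 3 after hydroxytamoxifen (250 nM), to which both genotypes were exposed. Crypt-enriched small intestine released with EDTA came from Fgfr1op KO and WT mice, 3 mice of each genotype at day 6 and 3 at day 9 after tamoxifen, which the labels give for both genotypes. Caco-2, a human colorectal adenocarcinoma line, was transduced with lentivirus from which doxycycline switches on a short hairpin RNA. The hairpin targets Fgfr1op in 3 libraries (shFgfr1op) and nothing in the 3 others (scramble), all at day 3 of the drug. The recombinase or promoter behind the knockout, the deleted exons, and the strain, sex and age of the mice are not given in the sources used here. The crypt columns show genotype, a number from 1 to 6 and a second, longer number, but not the day, so KO was compared with WT over both days. The labels do not say what the second number is. The labels do not tie the Caco-2 libraries to separate cultures, and their spread, which those p-values rest on, may be technical.

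Spheroid libraries held 44152608 to 67630241 counts, crypt libraries 48068740 to 103352863 and Caco-2 libraries 37281821 to 50965004. Levels are in CPM, a gene's counts scaled to a common library total after TMM normalization (edgeR). Fgfr1op itself (ENSMUSG00000069135, chr17:8165501-8196804, mm10) was at 15.0 to 19.8 CPM in KO and 21.7 to 24.4 CPM in WT spheroids, at 11.7 to 25.9 against 25.2 to 39.0 CPM in crypts, and at 6.43 to 7.26 against 15.5 to 15.9 CPM in Caco-2. The KO and WT ranges overlapped in crypts and not in the other tables, and edgeR called Fgfr1op lower in crypts (-0.65 ± 0.19, adjusted p 0.0261) and Caco-2 (-1.20, adjusted p 1.65e-14) and not in spheroids (-0.42 ± 0.095, adjusted p 0.117). KO crypt columns 4, 5 and 6 stood apart from all other crypt libraries, with scores of 101.7 to 124.3 on the leading principal component, which held 55.96% of the variance, where the rest scored -64.4 to 5.16. In these 3 columns the summed CPM of the 6 enterocyte markers was 1383 to 2940 and that of the 6 Paneth cell markers 7209 to 11710, against 8391 to 19560 and 33140 to 81670 in the 9 other crypt libraries. The 6 plasma cell markers summed to 237.4 to 438.3 CPM there and to 63.9 to 237.3 CPM in the other crypt libraries. They summed to 532.1 to 657.7 CPM in WT spheroids, which are epithelial cultures, so this sum does not single out plasma cells. The 6 epithelial markers summed to 10700 to 11010 CPM in KO crypt columns 4 to 6, against 5484 to 9889 CPM in the other crypt libraries. In bulk samples like these, fewer cells of a type and less RNA per cell cannot be told apart. The part of these markers in the values of the stress genes was not tested.

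Promoter sequences are shown for Hspa5, Syvn1, Herpud1, Chac1 and Nupr1. These are the genes with a searched motif before their start that were called over all libraries of crypts or Caco-2. Motifs of these kinds were searched because the sensors and Atf4 are known to act through such elements. Whether they act through the stretches shown was not tested. Syvn1 and Chac1 were called in crypts, and Hspa5, Herpud1 and Nupr1 in human Caco-2 only. All sequences shown are of the mouse. RefSeq promoters (GRCm38.p6, 250 bases before to 50 after the start) matched 38 of the 42 genes. The motifs were the ER stress element, which is CCAAT and CCACG 9 bases apart, its second form, which is ATTGG and CCACG 1 base apart, the core TGACGTGG of the unfolded protein response element, and the core TGATGCAA of the amino acid response element, each on both strands. Capitals mark the match, spacer included, between up to 40 flanking bases on each side, and each sequence runs 5′ to 3′ on the gene's strand.
Hspa5: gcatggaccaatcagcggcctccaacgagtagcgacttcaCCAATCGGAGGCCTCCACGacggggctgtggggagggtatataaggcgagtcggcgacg
Syvn1: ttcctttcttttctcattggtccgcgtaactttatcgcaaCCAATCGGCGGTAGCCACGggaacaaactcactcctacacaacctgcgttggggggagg
Herpud1, amino acid response core: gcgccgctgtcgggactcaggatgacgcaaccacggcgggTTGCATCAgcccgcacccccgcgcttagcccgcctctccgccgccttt
Herpud1, second form of the ER stress element: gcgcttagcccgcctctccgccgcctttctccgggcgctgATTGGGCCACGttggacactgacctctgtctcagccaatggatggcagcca
Chac1: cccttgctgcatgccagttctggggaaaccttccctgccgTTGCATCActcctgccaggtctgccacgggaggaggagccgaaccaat
Nupr1: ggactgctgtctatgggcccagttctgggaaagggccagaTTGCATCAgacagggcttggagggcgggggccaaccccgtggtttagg
The windows lie at chr2:34771985-34772083 for Hspa5, chr19:6046492-6046590 for Syvn1, chr8:94386277-94386364 and chr8:94386337-94386427 for Herpud1 and chr2:119351009-119351096 for Chac1, all on the plus strand, and at chr7:126625533-126625620 on the minus strand for Nupr1. The ER stress element was found in 8 of 20 unfolded protein response genes with a promoter (Calr, Canx, Creld2, Dnajc3, Hsp90b1, Hspa5, Pdia6 and Syvn1) and in 0 of 18 integrated stress response genes, against 0.137% of the 27025 genes in the promoter table. Its second form was found in Herpud1 and, after the start and so not printed, in Dnajb11 (0.0444% of all genes). The amino acid response core was found in Chac1, Nupr1 and Pycr1 and in Herpud1, which is 3 of 18 integrated and 1 of 20 unfolded protein response genes, against 1.03% of all. TGACGTGG was found in none of the 38 and in 0.714% of all genes. Because the genes were chosen as known components and targets of these pathways, the shares are a description and not a test of enrichment. A match describes these letters and shows no binding.

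In crypt preparations 11 of the 18 integrated stress response genes tested rose in KO. Atf5, Chac1 and Trib3 had the largest rises of all 42 genes, and the serine synthesis enzymes Phgdh, Psat1 and Psph rose with Asns, Mthfd2 and Shmt2. Among the ER chaperones 1 of 14 passed. Over all genes tested in crypts, 24.5% were called (14.0% higher and 10.5% lower) by edgeR's quasi-likelihood test at a Benjamini-Hochberg adjusted p below 0.05. Of the 41 stress genes tested 14 were called higher and 1 lower. Of the integrated stress response genes 1 fell, and the 18 had a median log2 fold change of 1.13. Among the 23 unfolded protein response genes 3 were called higher and 0 lower, with a median of 0.17. The median over all genes tested was 0.055. Stc2 had too few counts in crypts to be tested.

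**Figure D1:**
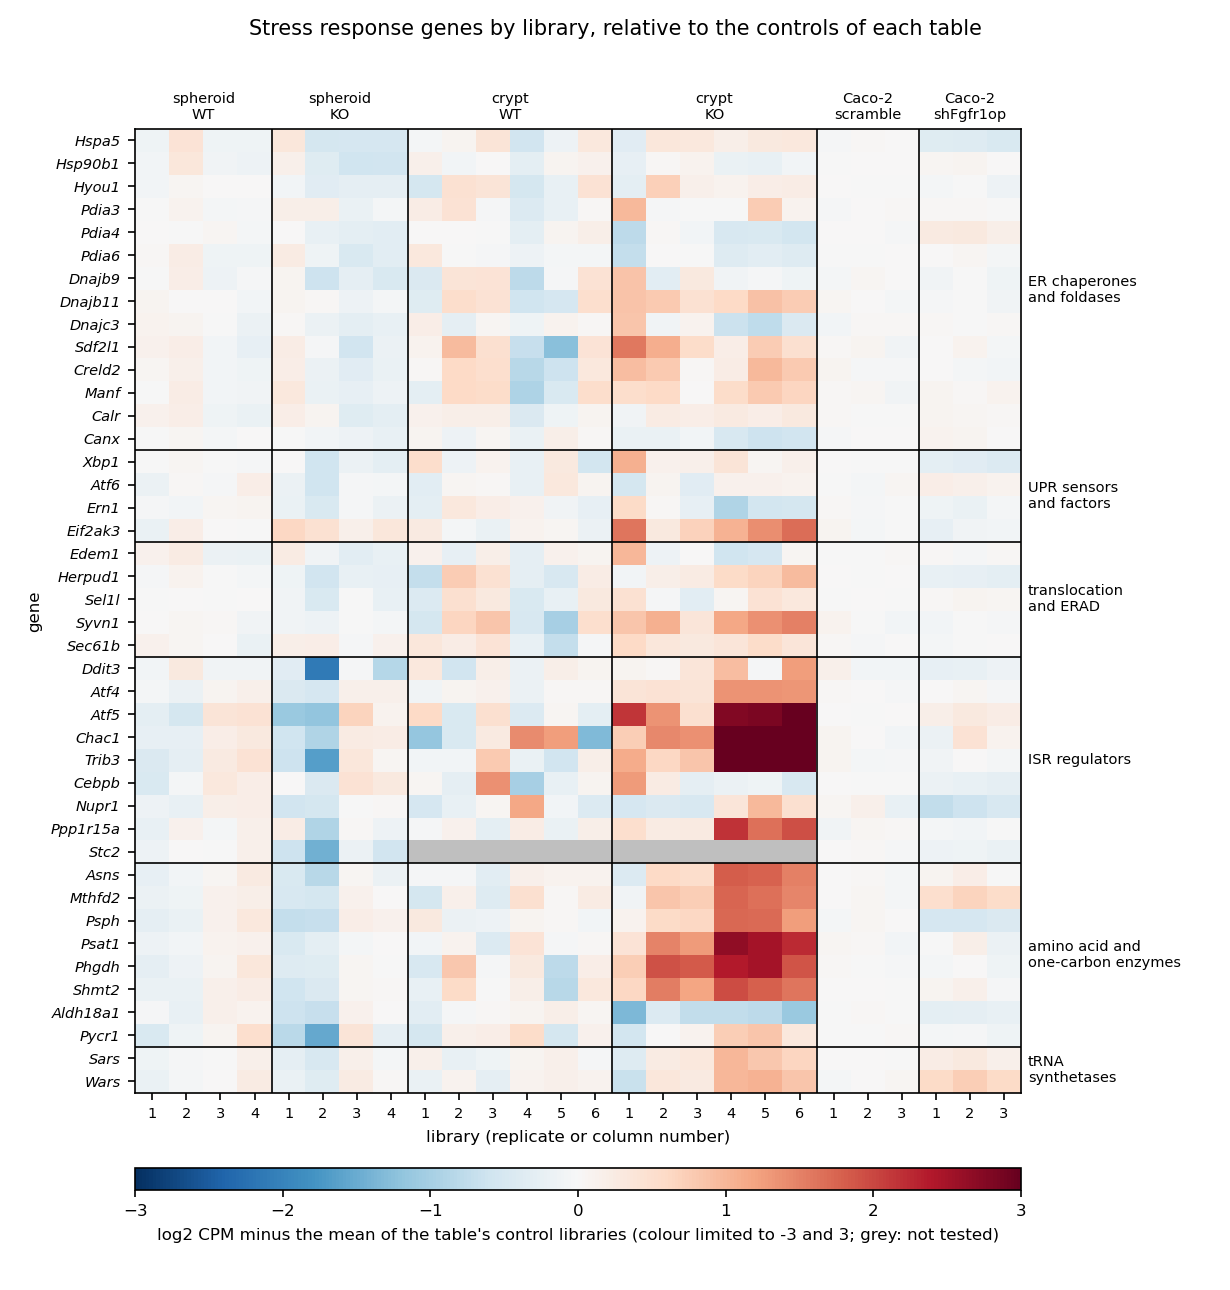
Each cell is 1 gene in 1 library, as log2 CPM minus the mean of the control libraries of the same table, with genes grouped by role and libraries numbered as in the text. KO crypt columns 4 to 6 carry the deepest red among the regulators and enzymes, and KO spheroids 1 and 2 are blue in the same rows.

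Atf4, the transcription factor at the centre of the integrated stress response (ENSMUSG00000042406, chr15:80255184-80257541), was at 141 to 275 CPM (median 206) in the 6 KO crypt libraries and at 95.6 to 117 CPM (median 109.6) in the 6 WT libraries. Every KO library lay above every WT library, and the log2 fold change was 0.94 ± 0.20 (SE; edgeR adjusted p 0.0058). The groups did not overlap for 5 stress genes in crypts (Atf4, Eif2ak3, Ppp1r15a and Shmt2 above, Aldh18a1 below). This share was near that of all genes tested, of which 10.6% did not overlap. Atf5, a related factor whose translation is also under eIF2 control (ENSMUSG00000038539, chr7:44812256-44816658), was at 1.05 to 6.36 CPM (median 4.38) in KO and 0.537 to 1.15 CPM (median 0.694) in WT. KO column 3 lay inside the WT range and the other KO columns above it (2.33 ± 0.41, edgeR adjusted p 0.00264).

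Chac1, which degrades glutathione, and Trib3, a pseudokinase that feeds back on Atf4, are both known targets of Atf4. Chac1 (ENSMUSG00000027313, chr2:119351229-119354381) was at 29.6 to 32.5 CPM in KO columns 4 to 6, at 2.62 to 4.23 CPM in KO columns 1 to 3 and at 0.604 to 4.17 CPM (median 1.50) in WT. Its log2 fold change was 3.10 ± 0.79 (edgeR adjusted p 0.016). Trib3 (ENSMUSG00000032715, chr2:152337422-152344032) was at 40.1 to 47.9, 5.57 to 7.85 and 2.42 to 6.20 CPM in the same order (2.73 ± 0.59, edgeR adjusted p 0.00755). Both genes were thus far above WT in 3 KO libraries and within or a little above the WT range in the other 3. Ppp1r15a (GADD34), which brings a phosphatase back to eIF2, was at 5.87 to 22.6 CPM (median 11.4) in KO against 4.04 to 5.78 CPM (median 5.18) in WT (1.34 ± 0.33, edgeR adjusted p 0.0125). The 3 regulators tested and not called were Ddit3 (CHOP, 0.50 ± 0.24), Nupr1 (0.059 ± 0.33) and Cebpb (0.028 ± 0.41).

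Of the 8 enzymes 6 rose, 1 fell and Pycr1, the last step of proline synthesis, did not pass (0.27 ± 0.25). Phgdh, Psat1 and Psph carry out the steps from a glycolytic intermediate to serine. Phgdh (ENSMUSG00000053398, chr3:98313170-98339990) was at 49.1 to 165 CPM (median 111) in KO and 17.1 to 51.8 CPM (median 31.4) in WT (1.88 ± 0.30, edgeR adjusted p 0.00218). Psat1 (ENSMUSG00000024640, chr19:15904678-15947337) was at 45.6 to 218 CPM (median 129.7) in KO and 26.0 to 45.7 CPM (median 34.5) in WT (1.93 ± 0.32, edgeR adjusted p 0.00245). Psph was at 24.0 to 74.2 CPM (median 44.0) in KO and 20.0 to 27.6 CPM (median 22.0) in WT (1.11 ± 0.25, edgeR adjusted p 0.00796). In each of these 3 genes KO column 1 lay inside the WT range and the other KO columns above it.

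Shmt2 and Mthfd2 carry one-carbon units from serine in mitochondria, and Asns makes asparagine. Shmt2 (ENSMUSG00000025403, chr10:127517123-127522444) was at 93.7 to 236 CPM (median 180.2) in KO and 34.0 to 91.5 CPM (median 64.6) in WT, without overlap (1.44 ± 0.25, edgeR adjusted p 0.00255). Mthfd2 was at 66.1 to 238 CPM (median 162) in KO and 49.6 to 99.2 CPM (median 75.8) in WT (1.14 ± 0.28, edgeR adjusted p 0.0123), and Asns at 137 to 642 CPM (median 396) and 148 to 204 CPM (median 187) (1.16 ± 0.31, edgeR adjusted p 0.0179). KO column 1 was again the exception, inside the WT range for Mthfd2 and, at 137 CPM, below every WT library for Asns. Aldh18a1, which turns glutamate into a precursor of proline (ENSMUSG00000025007, chr19:40550257-40588463), went the other way. It was at 140.1 to 266 CPM (median 208) in KO and 286 to 398 CPM (median 366) in WT, without overlap (-0.84 ± 0.15, edgeR adjusted p 0.00302). The synthetases Sars (seryl, 183 to 471 CPM in KO against 205 to 263 CPM in WT, 0.50 ± 0.19) and Wars (tryptophanyl, 0.56 ± 0.23) did not pass.

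**Figure D2:**
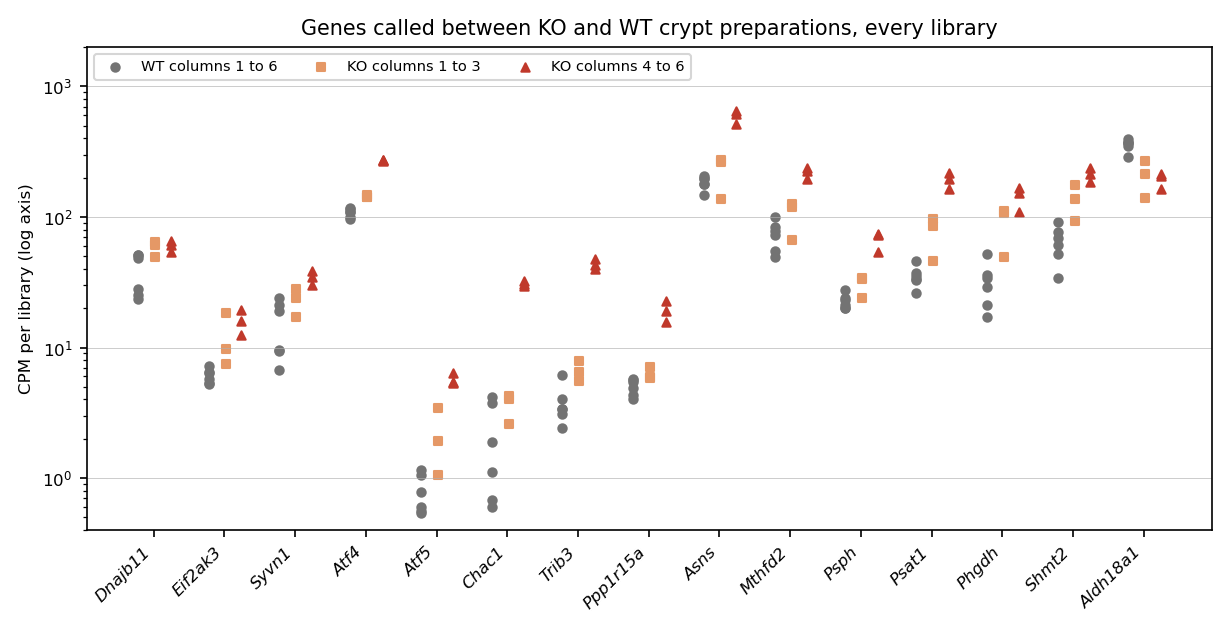
CPM on a log axis of the 15 genes called between KO and WT crypt preparations, 1 point per library. KO columns 4 to 6 (triangles) are the highest libraries for the regulators and most enzymes, with Chac1 at 29.6 to 32.5 CPM against at most 4.17 CPM in WT, and Aldh18a1 is the 1 gene with all KO libraries below WT.

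Of the 4 sensors and factors of the unfolded protein response, 1 passed in crypts. Eif2ak3, the ER-resident eIF2 kinase PERK (ENSMUSG00000031668, chr6:70844515-70905245), was at 7.41 to 19.5 CPM (median 14.1) in KO and 5.25 to 7.22 CPM (median 6.05) in WT, without overlap (1.20 ± 0.22, edgeR adjusted p 0.0035). Its KO values were 7.41 to 18.5 CPM in columns 1 to 3 and 12.4 to 19.5 CPM in columns 4 to 6, and the highest KO library of the first 3 lay within the range of the last 3. Xbp1 was at 0.33 ± 0.21, Ern1 at -0.21 ± 0.23 and Atf6 at -0.065 ± 0.15, and none of them passed. Counts per gene do not show Xbp1 splicing or the cleavage of Atf6, the steps by which these branches are switched on.

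Among the 14 ER chaperones and foldases the median log2 fold change in crypts was 0.16, with a range from -0.37 to 0.67. Hspa5 (BiP), the main ER chaperone and a usual marker of the unfolded protein response, was at 757 to 1214 CPM (median 1179) in KO and 641 to 1246 CPM (median 966) in WT. The groups overlapped almost fully (0.17 ± 0.17, edgeR adjusted p 0.486). Dnajb11, a co-chaperone of Hspa5, was the member that rose, at 49.0 to 65.6 CPM (median 61.1) against 23.5 to 51.4 CPM (median 38.1) (0.64 ± 0.21, edgeR adjusted p 0.0373). KO column 3 lay inside the WT range. The call was kept in 4 of the 12 fits that left out 1 library, with edgeR adjusted p from 0.0264 to 0.104. Sdf2l1 (0.67 ± 0.34), Creld2 (0.56 ± 0.26) and Manf (0.42 ± 0.25), secreted or luminal ER proteins, were among the highest, and Pdia4 (-0.37 ± 0.15), Canx, a lectin chaperone (-0.35 ± 0.13), and Pdia6 (-0.29 ± 0.14) were the lowest. None of these 6 passed.

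In ER-associated degradation, Syvn1 (HRD1), the ubiquitin ligase that marks ER proteins for the proteasome, was at 17.1 to 38.2 CPM (median 29.2) in KO and 6.75 to 23.7 CPM (median 14.3) in WT. KO columns 1 and 3 lay inside the WT range (0.94 ± 0.31, edgeR adjusted p 0.0384), and 5 of the 12 fits that left out 1 library kept the call. Herpud1, Sel1l, Edem1 and Sec61b, the other 4 of this role, had log2 fold changes from 0.067 to 0.38 and did not pass.

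**Figure D3:**
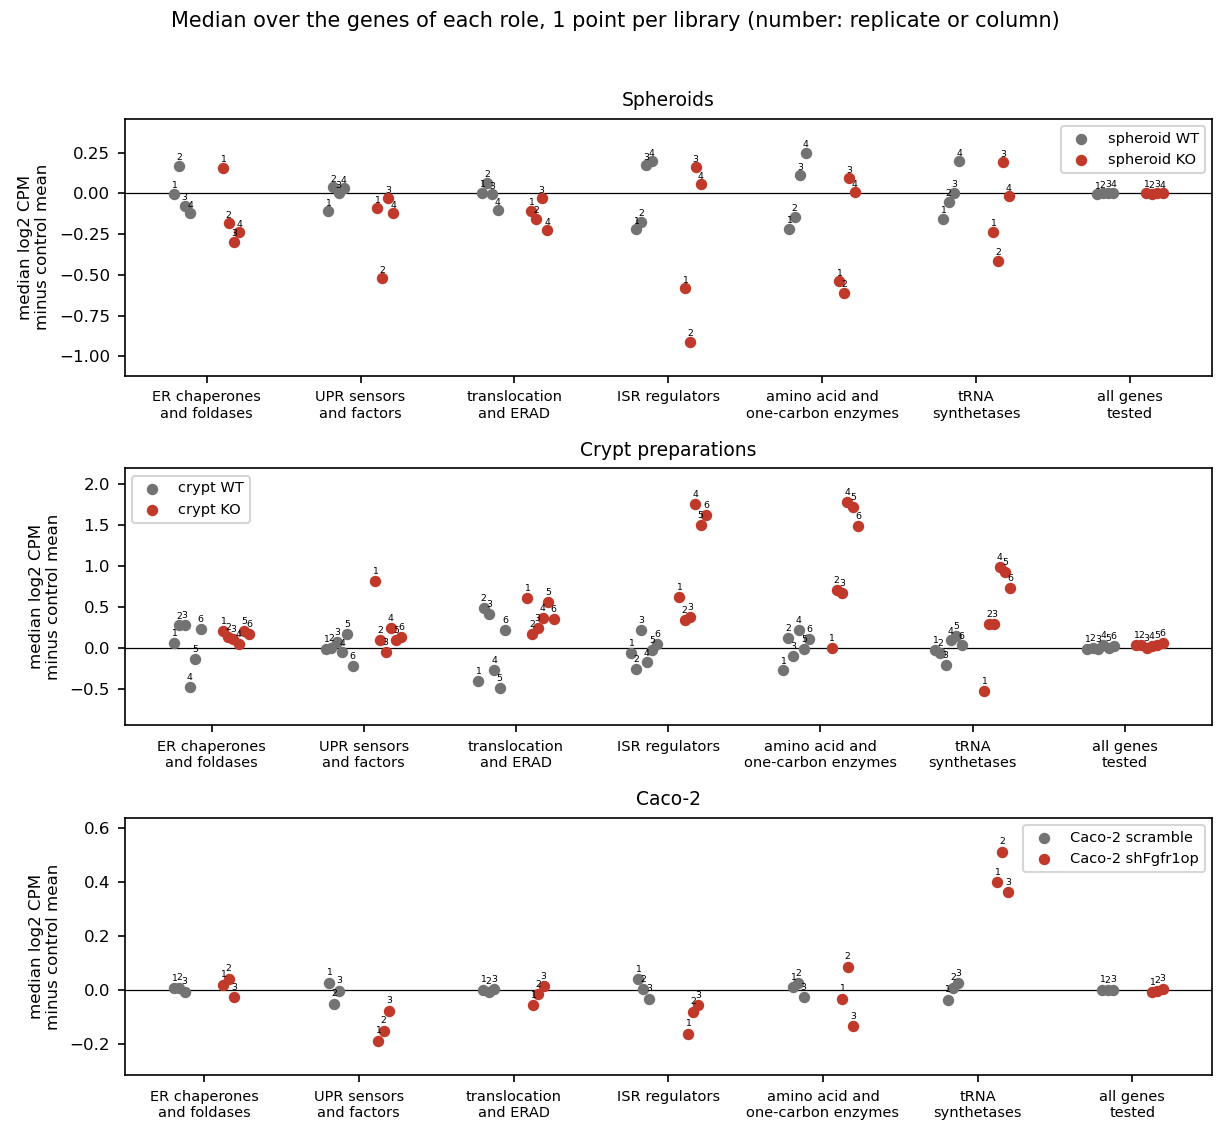
Median over the genes of each role of log2 CPM minus the control mean, with 1 point per library and its number. In crypts the regulators and the enzymes are between 1.49 and 1.78 in KO columns 4 to 6, while the medians of all genes tested lie between -0.012 and 0.06.

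The integrated stress response genes were highest in KO crypt columns 4 to 6. The median of the 8 regulators tested was 1.76, 1.50 and 1.63 (log2, relative to the WT mean) in these columns and 0.63, 0.35 and 0.38 in KO columns 1 to 3. For the 8 enzymes it was 1.78, 1.73 and 1.49 against -0.0029, 0.71 and 0.67. Among the first 3 columns, KO column 1 was the lowest for the enzymes and the highest for the regulators. The second header number parts the libraries a little differently, since a gap in it sets KO columns 1 to 3 and WT columns 1 and 2 (lower numbers) apart from KO columns 4 to 6 and WT columns 3 to 6 (higher numbers). Whether the sets of columns differ in day is not shown by the headers, and the difference between their KO effects was not tested.

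Fits within the column numbers, added after these libraries were seen, gave the sizes. KO columns 4 to 6 against WT columns 4 to 6 called 23 of 42 stress genes, 18 higher and 5 lower, where 41.3% of all genes were called. Columns 1 to 3 called 0 of 41, where 0.677% of all genes were called, with a median log2 fold change of 0.41 over the 18 integrated stress response genes and of 0.025 over all genes. In that edgeR fit 2138 of the 16532 genes tested had an unadjusted p below 0.05, and no other tool was run on it. Parted by the second number, the libraries of higher numbers called 21 of 42 stress genes (41.1% of all genes) and those of lower numbers, with 2 WT libraries, 0 of 41 (0.156% of all genes, 1421 genes at an unadjusted p below 0.05). With KO columns 4 to 6 left out and all WT libraries kept, 6 stress genes were called where 5.46% of all genes were. These were Atf5 (1.46), Eif2ak3 (0.97), Phgdh (1.50), Psat1 (1.11) and Shmt2 (1.09) as higher and Aldh18a1 (-0.79) as lower. For Chac1 the log2 fold change went from 3.10 to 0.85 without these columns, for Trib3 from 2.73 to 0.82, for Ppp1r15a from 1.34 to 0.33 and for Asns from 1.16 to 0.30, and none of the 4 passed. Atf4 also lost its call (0.94 to 0.41, edgeR adjusted p 0.0984), as did Psph (1.11 to 0.44), Mthfd2 (1.14 to 0.50), Syvn1 (0.94 to 0.63) and Dnajb11 (0.64 to 0.62).

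Among the unfolded protein response genes, Canx, Pdia4, Dnajc3 and Ern1 were called lower within columns 4 to 6 (-0.60, -0.54, -0.65 and -0.62). Creld2, Herpud1, Sec61b, Syvn1 and Eif2ak3 were called higher (0.70 to 1.50). These 4 lower and 5 higher calls among 23 genes are near the share of all genes called in that fit, 41.3%. Within the higher header numbers 4 of the 23 were called lower and 3 higher, where 41.1% of all genes were called. Sars (0.72) and Wars (0.80) were called higher within columns 4 to 6 as well. In the same 3 KO columns, beside the enterocyte and Paneth cell sums above, the 6 goblet cell markers summed to 4345 to 5480 CPM, against 6017 to 11190 CPM in the other crypt libraries, and the 6 myeloid markers to 335 to 796 CPM against 1296 to 5232 CPM. Their part in these calls was not tested.

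A wider list of 105 genes of both pathways, also chosen with earlier results known, was counted in crypts, 102 of them tested. Of these, 31 were called higher and 5 lower, with a median of 0.086, where 24.5% of all genes were called. Within columns 1 to 3 edgeR called 0, where 0.677% of all genes were called. Without KO columns 4 to 6 the counts were 7 higher and 1 lower, where 5.46% of all genes were called. The 19 tested kinases, eIF2 factors and regulators held 12 higher and 2 lower, and 2 higher and 0 lower without those columns. The 25 tested amino acid genes held 15 higher and 1 lower, and 5 higher and 1 lower without them. The 3 of smallest p were Slc7a5, the light chain of a large neutral amino acid transporter (10.2 to 15.5 CPM in KO against 3.91 to 6.18 CPM in WT, 1.46 ± 0.16), Sesn2, a leucine-binding inhibitor of mTORC1 (6.28 to 10.8 against 3.28 to 4.14 CPM, 1.19 ± 0.16), and Gars, the glycyl-tRNA synthetase (31.0 to 61.3 against 16.2 to 22.6 CPM, 1.18 ± 0.17). For these 3 genes every KO library, columns 1 to 3 included, lay above every WT library, and all 12 fits that left out 1 library kept the calls. Within columns 1 to 3 none of the 3 passed, with edgeR adjusted p of 0.0719 for Slc7a5 (1.28), 0.158 for Sesn2 (1.06) and 0.119 for Gars (1.17). Of 16 other folding genes 1 was called higher, of 10 other sensor and processing genes 1 was called higher, and of 32 genes of translocation, secretion and degradation 2 were called higher and 2 lower.

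In spheroids no stress gene was called. Of the 42, 38 had a log2 fold change below 0, with a median of -0.19 over all 42 against -0.0018 over all 15915 genes tested. The integrated stress response genes had a median of -0.22 and the unfolded protein response genes one of -0.15. By role, 13 of 14 chaperones and foldases were below 0 (-0.32 to 0.027), 8 of 9 regulators (-0.66 to 0.08), all 8 enzymes (-0.43 to -0.18), 4 of 5 genes of translocation and degradation (-0.28 to 0.12) and 3 of 4 sensors and factors, Eif2ak3 being the exception. The share of counts on mitochondrial genes also separated the groups, at 0.277% to 0.649% in KO and 0.688% to 0.802% in WT spheroids, and its part in these values was not tested. These genes vary together between libraries, so the 38 are not 38 separate observations. In this fit edgeR called 0.232% of all genes, and 2325 genes had an unadjusted p below 0.05. limma-voom, as an alternative, also called 0 of the 42. DESeq2 called 3 of the 42, namely Eif2ak3 as higher (adjusted p 0.0383) and Hyou1 and Stc2 as lower (0.0473 and 0.0496).

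The 3 stress genes of smallest p in spheroids were Eif2ak3, Hyou1 and Herpud1. Eif2ak3 was at 68.5, 61.3, 49.4 and 56.3 CPM in KO replicates 1 to 4 and at 38.9, 51.1, 44.6 and 43.9 CPM in WT replicates 1 to 4. KO replicate 3 lay inside the WT range (0.40 ± 0.11, edgeR adjusted p 0.15). Hyou1, a large chaperone of the ER, was at 235, 197, 207 and 209 CPM in KO and 238, 259, 253 and 252 CPM in WT, with every KO library below every WT library (-0.24 ± 0.069, edgeR adjusted p 0.169). Herpud1, a scaffold of the degradation complex, was at 75.7, 54.9, 71.1 and 69.3 CPM in KO and 80.7, 89.1, 81.5 and 78.7 CPM in WT, also without overlap (-0.28 ± 0.095, edgeR adjusted p 0.221). Stc2, a secreted glycoprotein induced by ER stress, was at 195, 111, 268 and 201 CPM in KO and 270.3, 302, 299.6 and 335 CPM in WT, and KO replicate 2 was the lowest (-0.64 ± 0.23, edgeR adjusted p 0.267). Groups did not overlap for 4 of the 42 genes, Sel1l, which partners Syvn1, being the fourth, all with KO below WT. This share was near that of all genes, of which 8.56% did not overlap. Psat1 (310.0, 343, 406 and 427 CPM in KO, 381, 399.9, 456 and 462 CPM in WT) and Sars (370.2, 320.2, 492 and 424 CPM in KO, 409, 434, 442 and 496 CPM in WT) had the smallest p of the enzymes and the tRNA synthetases, and for both the groups overlapped (-0.19 ± 0.11 and -0.15 ± 0.12).

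Of the wider list, all 105 genes were tested, with a median of -0.10, and 1 was called. This was Creb3, an ER-anchored transcription factor, at 34.2, 42.2, 36.3 and 36.6 CPM in KO and 25.5, 26.5, 28.2 and 27.7 CPM in WT (0.47 ± 0.079, edgeR adjusted p 0.0475), a call kept in 1 of the 8 fits that left out 1 library. Got1, a cytosolic aminotransferase (-0.25 ± 0.064), and Lman1, a cargo receptor for export from the ER (-0.32 ± 0.075), were next by p and did not pass.

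Libraries of 1 genotype were farther apart than the genotypes in the integrated stress response genes. The median of the 9 regulators relative to the WT mean was -0.58, -0.91, 0.16 and 0.055 (log2) in KO replicates 1 to 4, and -0.22, -0.17, 0.17 and 0.20 in WT replicates 1 to 4. KO replicates 1 and 2 were therefore the lowest libraries, and KO replicates 3 and 4 lay inside the WT range. Trib3 was at 98.0, 47.9, 193 and 157 CPM in KO and 112, 126, 183 and 203 CPM in WT, and Atf5 was at 75.1, 72.0, 257 and 174 CPM in KO and 133, 113, 212 and 221 CPM in WT. Ddit3, which encodes the factor CHOP, was at 52.7, 15.2, 64.4 and 36.6 CPM in KO against 63.2, 80.9, 62.0 and 61.5 CPM in WT (-0.66 ± 0.39). The chaperones ordered the libraries otherwise. Hspa5 was at 1294, 707, 724 and 714 CPM in KO and 929, 1353, 926 and 929.7 CPM in WT (-0.27 ± 0.22), so that 1 library of each genotype stood far above the other 3. Trib3, Atf5, Ddit3 and Hspa5 were singled out here after their values were seen.

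The KO effects in spheroids and in crypts were compared in 1 fit over the 20 mouse libraries. Of the 42 stress genes 4 were called, all with a lower KO effect in spheroids, where 2.86% of all genes were called in either direction. They were Atf5 (-2.52 ± 0.64, edgeR adjusted p 0.0411), Psat1 (-2.08 ± 0.42, 0.018), Phgdh (-2.01 ± 0.41, 0.018) and Shmt2 (-1.62 ± 0.35, 0.0228), where the value is the log2 fold change in spheroids minus that in crypts. The direction was lower in spheroids for 17 of the 19 integrated stress response genes (median -1.30) and for 19 of the 23 unfolded protein response genes (median -0.27), against a median of -0.046 over all genes. Trib3 (-3.02 ± 0.81) and Chac1 (-3.25 ± 0.99) had larger differences and larger errors and did not pass. The calls depended on single libraries. Of the 20 edgeR fits that left out 1 library, 6 kept the call of Atf5, 19 that of Psat1, 19 that of Phgdh and 16 that of Shmt2. Atf5 also lost its call with no filter on low counts (edgeR adjusted p 0.0828). Without KO spheroid replicate 1 the edgeR count was 0. With all libraries 3803 genes had an unadjusted p below 0.05, and the count of stress genes was 11 by DESeq2 and 19 by limma-voom. Without KO spheroid replicate 2 or WT spheroid replicate 3 or 4 the edgeR count was 2, without KO crypt column 1, 2 or 3 it was 12, 12 and 11, and without KO crypt columns 4 to 6 it was 1 (Psat1, -1.26). Culture, time after the drug and the days mixed in crypts differ between the preparations as well and cannot be told apart from them.

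**Figure D4:**
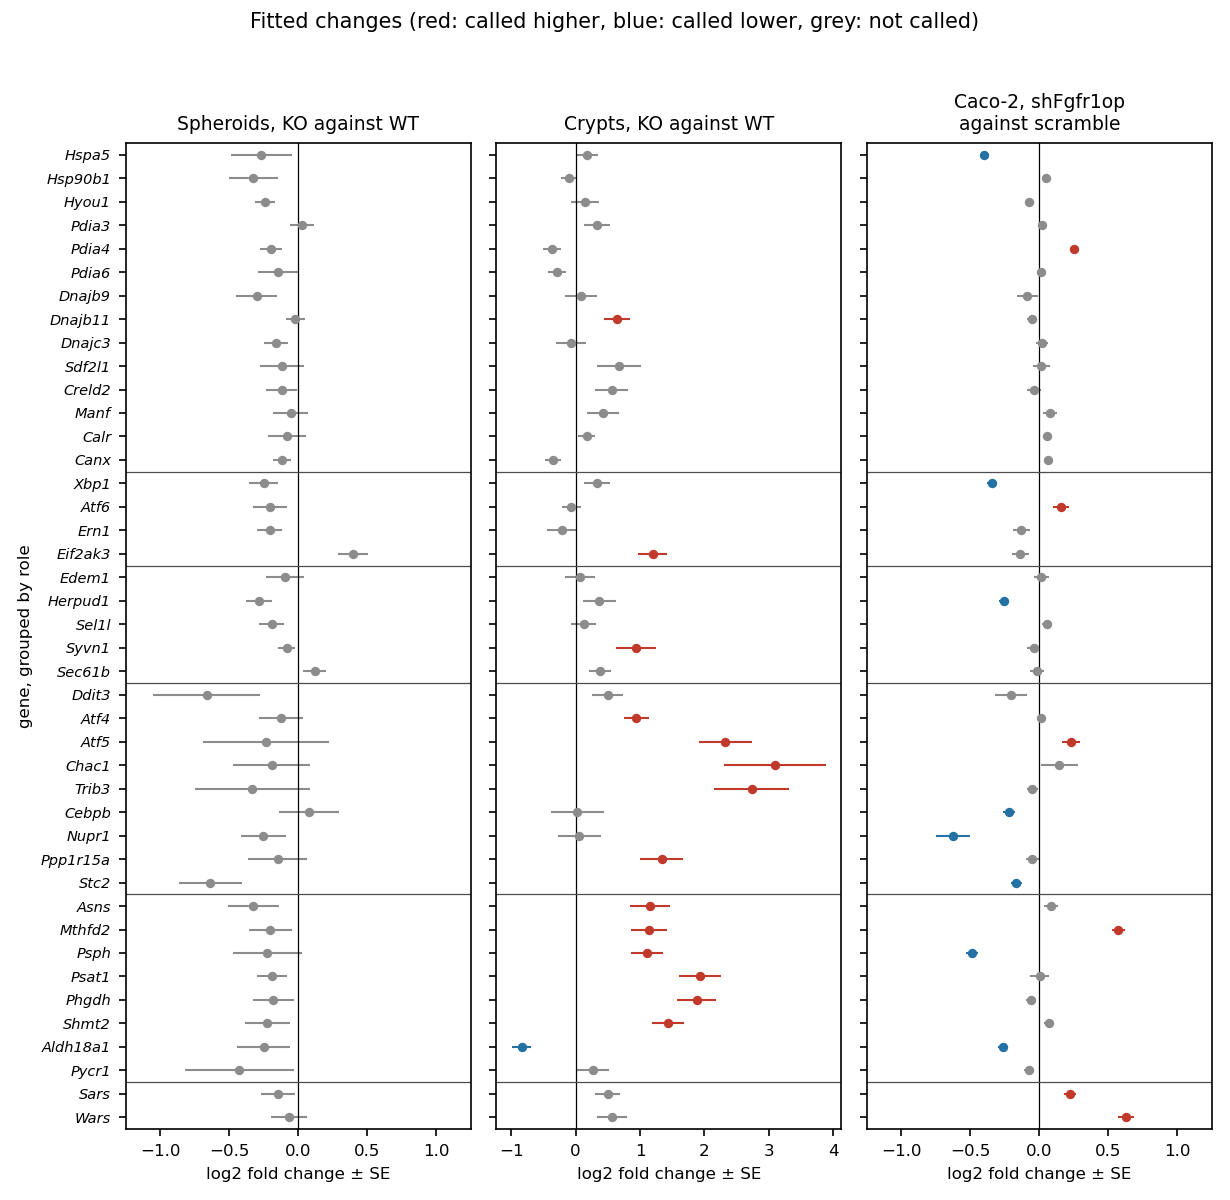
Fitted log2 fold change with its SE for each of the 42 genes in the 3 comparisons, with separate horizontal scales and genes grouped by role. In crypts the called genes gather among the regulators and enzymes, in spheroids none is called, and in Caco-2 the called genes lie between -0.63 and 0.63.

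The level from which these genes started differed between WT spheroids and WT crypts. On a scaling joined over both tables, 29 of the 42 genes were higher in all 4 WT spheroid libraries than in all 6 WT crypt libraries, 6 were lower and 7 overlapped. Of the 18485 genes tested over both tables, 35.7% were higher in spheroids without overlap and 38.7% lower. Of the 9 regulators 8 were higher in spheroids. Atf4 was at 462 to 588 CPM in WT spheroids and at 108 to 138 CPM in WT crypts. Trib3 was at 87.5 to 163 CPM against 2.84 to 7.32 CPM, and its highest KO crypt library reached 55.8 CPM. Atf5 was at 89.4 to 178 CPM against 0.622 to 1.31 CPM, with a highest KO crypt library of 7.33 CPM. Even the KO crypt libraries thus stayed below WT spheroids for these 3 genes, which did not hold for all integrated stress response genes. The highest KO crypt library lay above the highest WT spheroid library for Asns (747.5 against 431.3 CPM), Mthfd2, Psph, Sars, Wars, Nupr1 and Aldh18a1. For the other integrated stress response genes it lay below. Psat1 (337 against 40.6 CPM on average) and Phgdh (278 against 36.5 CPM) of the serine pathway were also higher in spheroids. Stc2 was at 212 to 269 CPM in WT spheroids and at most 0.293 CPM in WT crypts. The 6 genes lower in spheroids were Canx, Hsp90b1, Pdia4, Pdia6, Herpud1 and Aldh18a1, of which Pdia6, a disulfide isomerase, was at 167 to 210.1 against 733 to 1014 CPM. The 2 preparations differ in cell makeup: the 6 Paneth cell markers summed to 22.2 to 62.1 CPM in WT spheroids on their own scaling, against 33140 to 81670 CPM in WT crypts. These values are a description without a test.

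**Figure D5:**
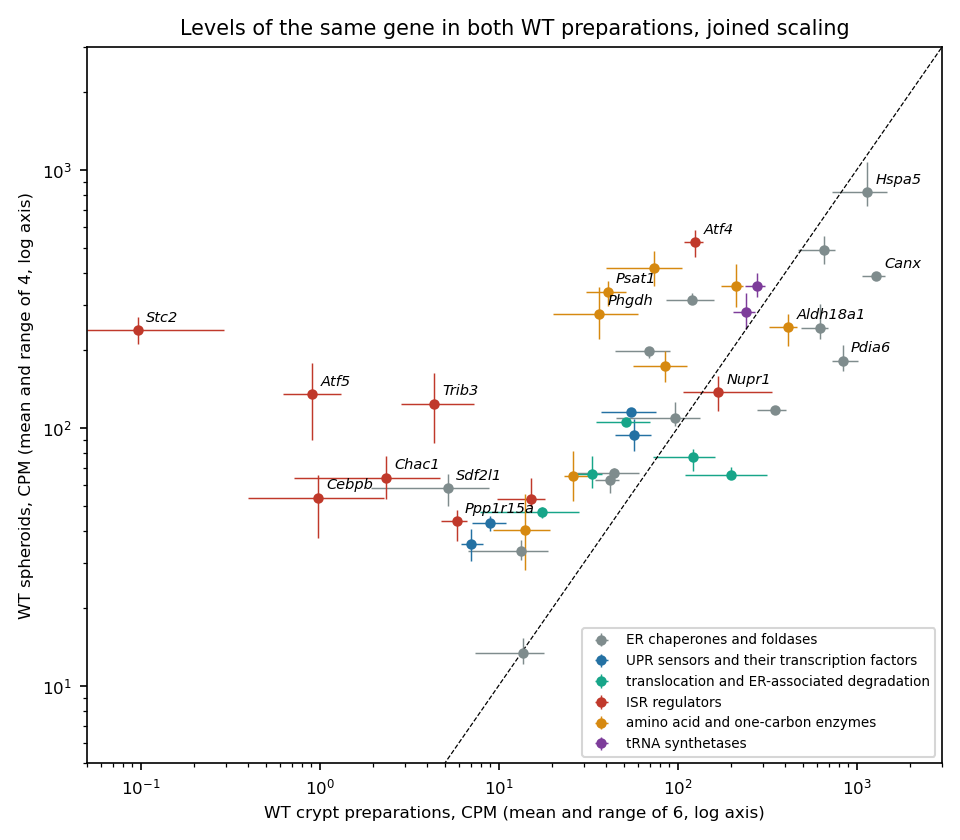
Mean CPM of each gene in WT crypts (horizontal) and WT spheroids (vertical), both on log axes and 1 joined scaling, with bars for the range over libraries (the left bar of Stc2 is drawn to the edge of the plot) and a dashed line of equal level. The regulators lie above the line except Nupr1, while Canx, Pdia6 and Aldh18a1 lie below it.

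Between genes, levels can be compared only per length. As RPKM, which is CPM per kilobase of exon (union of exons, GENCODE M21), Atf4 was the highest of the 42 in WT spheroids, at 280.2 ± 28.4 (SD, n = 4), followed by Hspa5 at 245 ± 50.2 and Calr at 215 ± 28.9. In WT crypts the order was Canx at 234 ± 23.4 (SD, n = 6), Hspa5 at 231 ± 52.6 and Calr at 197 ± 29.8, all chaperones, with Atf4 at 45.7 ± 3.59. Neighbours in these orders overlapped in range.

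With the hairpin against Fgfr1op, stress genes in Caco-2 differed by small amounts in both directions. HSPA5, XBP1 and HERPUD1 fell, as did PSPH and NUPR1, while MTHFD2, WARS1 and SARS1 rose. Of the 42 genes 14 were called, 6 higher and 8 lower, where 31.9% of all genes were called (15.7% higher and 16.2% lower). No call reached a log2 fold change of 1 in size. The median was -0.0081 over the 42 genes and -0.0051 over all genes. The 5 enterocyte markers of the human table summed to 1021 to 1175 CPM with the hairpin and to 1925 to 1968 CPM with scramble, and the 6 goblet cell markers to 5.85 to 7.19 and 19.0 to 21.6 CPM. The part of these markers in the values of the stress genes was not tested. The groups did not overlap for 20 of the 42 genes, where 42.4% of all genes did not overlap. The shares of stress genes called and not overlapping were thus near those of all genes.

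HSPA5 was at 482, 479.6 and 455 CPM in shFgfr1op replicates 1 to 3 and at 612, 633 and 623 CPM in scramble replicates 1 to 3 (-0.40 ± 0.030, edgeR adjusted p 4.26e-15). Every hairpin library lay below every scramble library. PDIA4, a disulfide isomerase, was the chaperone that rose, at 468, 470.4 and 438 against 391, 388 and 377 CPM (0.25 ± 0.031), and the other 12 of the role did not pass. Of the sensors and factors, XBP1 fell, at 165, 159 and 152 against 203, 199.9 and 201 CPM (-0.34 ± 0.035, edgeR adjusted p 3.73e-11), ATF6 rose by 0.16 ± 0.055, and EIF2AK3 (-0.14 ± 0.061) and ERN1 (-0.13 ± 0.062) did not pass. HERPUD1, whose mouse promoter holds the second form of the ER stress element and the amino acid response core, fell from 173, 172 and 173 to 148, 146 and 141 CPM (-0.26 ± 0.034), and the other 4 genes of translocation and degradation did not pass.

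Of the 19 integrated stress response genes 4 were called higher and 5 lower in Caco-2. Calls over all genes also went both ways, with 15.7% higher and 16.2% lower. NUPR1, a small stress-induced nuclear protein, was at 4.67, 5.12 and 5.58 CPM with the hairpin and 8.23, 8.81 and 6.72 CPM with scramble (-0.63 ± 0.13, edgeR adjusted p 8.20e-05), CEBPB at 78.7, 75.4 and 73.2 and 89.3, 87.7 and 87.9 CPM (-0.22 ± 0.041), and STC2 fell by 0.17 on the log2 scale. ATF5 rose from 21.5, 21.4 and 21.5 to 24.3, 26.4 and 24.9 CPM (0.23 ± 0.066), while ATF4 (0.013 ± 0.032), CHAC1 (0.15 ± 0.13), TRIB3 (-0.052 ± 0.039), PPP1R15A (-0.05 ± 0.050) and DDIT3 (-0.21 ± 0.12) did not pass. MTHFD2, of mitochondrial folate metabolism, had the largest rise among the enzymes, at 67.7, 75.4 and 69.2 against 47.8, 49.5 and 45.4 CPM (0.57 ± 0.049, edgeR adjusted p 2.54e-13). PSPH, the last step of serine synthesis, fell from 94.0, 102 and 97.8 to 68.8, 68.4 and 71.9 CPM (-0.49 ± 0.042, edgeR adjusted p 2.79e-13), whereas PHGDH (-0.061 ± 0.034) and PSAT1 (0.0015 ± 0.068), the steps before it, did not pass. ALDH18A1, which makes a precursor of proline, fell from 250.1, 257 and 251 to 206, 210.0 and 216 CPM (-0.26 ± 0.032). WARS1, the tryptophanyl-tRNA synthetase, which interferon is also known to induce, rose from 25.1, 26.4 and 27.6 to 39.2, 44.1 and 39.1 CPM (0.63 ± 0.060, edgeR adjusted p 7.80e-12), and SARS1, the seryl-tRNA synthetase, rose from 80.9, 81.8 and 80.1 to 94.6, 98.4 and 90.1 CPM (0.22 ± 0.041).

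Of the wider list 102 genes were tested in Caco-2, with 22 called higher and 26 lower and a median of -0.023. Over all genes tested, 31.9% were called (15.7% higher and 16.2% lower), and the median was -0.0051. The 3 of smallest p were MBTPS1, the protease that cleaves ATF6 (211, 205 and 202 against 161, 155 and 158 CPM, 0.38 ± 0.034), PDIA5, a disulfide isomerase (52.5, 54.5 and 49.0 against 76.2, 73.2 and 72.9 CPM, -0.51 ± 0.046), and CREB3L1, an ER-anchored transcription factor (11.8, 14.6 and 11.1 against 22.4, 22.3 and 23.7 CPM, -0.87 ± 0.083). The first was higher and the other two lower in every hairpin library.

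Aldh18a1 was called lower in crypts and in Caco-2, and had a log2 fold change of -0.25 ± 0.19 in spheroids. Psph was called in opposite directions in crypts (1.11 ± 0.25) and Caco-2 (-0.49 ± 0.042). Atf5 and Mthfd2 were called higher in both, with much smaller sizes in Caco-2 (0.23 and 0.57) than in crypts (2.33 and 1.14). Whether the effects differ between the human line and the mouse preparations was not tested.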

How the data were processed

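The authors deposited 1 table of raw gene counts per preparation, with several libraries as columns. The aligner STAR, the build mm10 and DESeq2 are named in the submitters' processing notes; the build of the human table, the handling of strand and multimapping reads, and the tool behind the counts are not given in the sources used here. Counting by strand is therefore unknown, and reads shared with an overlapping or near-identical gene cannot be told apart. Genes were matched by symbol, and rows of a repeated identifier were dropped. Each table was fitted alone in R 4.3.3 with edgeR 4.0.16 (filterByExpr, TMM, robust quasi-likelihood F test, Benjamini-Hochberg adjusted p below 0.05 over all genes tested), with limma 3.58.1 and DESeq2 1.42.0 as alternatives. The SE is the absolute log2 fold change divided by the square root of F. All 20 mouse libraries entered a joint fit for the difference between preparations. The steps were tested on simulated data.

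Members and lists were chosen with earlier results of these data known. All 42 are accounted for. Values per library, or in crypts their range, are given for members called in a mouse comparison (if fewer than 3 are called, the 3 of smallest p). The same holds for the member of smallest p per role and comparison, and for the 10 largest calls in Caco-2. The 3 wider-list genes of smallest p are named per comparison. Replicates differed by more than counting noise: the chi-square per degree of freedom between libraries of a group was 26.7 to 97.4 in spheroids, 66.7 to 996.8 in crypts and 3.98 to 9.58 in Caco-2. Alternatives were other scalings, count filters, tools, a replicate block, a fold minimum, leaving out each library and, chosen after seeing the data, fits within crypt column numbers and within sets of the second header number.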

Additional observations from a re-analysis of the deposited data

Results flagged for a closer look

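Single libraries far from the rest of their group were looked for in 98 pairs of gene and group, by the gap to the nearest library as a share of the group's range (Dixon's ratio), where chance flags about 1 pair in 20. Of the 7 found, 3 concern Hspa5. KO spheroid replicate 1 stood above the other KO spheroids (1294 against 724 CPM, ratio 0.971), WT spheroid replicate 2 above the other WT spheroids (1353 against 929.7 CPM, ratio 0.991), and KO crypt column 1 below the other KO crypts (757 against 1084 CPM, ratio 0.716). The same KO crypt column was the highest of its group for Xbp1 (97.1 against 60.0 CPM, ratio 0.758) and for Cebpb (1.82 against 0.881 CPM, ratio 0.723). WT crypt column 3 was highest for Cebpb (1.93 against 0.774 CPM, ratio 0.733) and WT crypt column 4 for Nupr1 (298 against 140.5 CPM, ratio 0.775).

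The KO effect was lower in spheroids than in crypts, by a test of the difference itself in edgeR, for Atf5 (-2.52 on the log2 scale), Psat1 (-2.08), Phgdh (-2.01) and Shmt2 (-1.62). Of the 20 fits that left out 1 library, 6, 19, 19 and 16 kept these calls, in that order, so that of Atf5 was the least stable. KO was above WT in 5 of 6, 5 of 6, 5 of 6 and 6 of 6 crypt libraries of these genes, counted against the highest WT library.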

How the results depend on the processing

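Over all alternatives, the fold changes of named genes kept their direction: 744 stayed on their side of the threshold, 99 lost the call, 11 gained it and 0 reversed. Counts moved more. In spheroids edgeR called 154 genes with no filter on low counts, 71 with a replicate block and 3 to 160 with 1 library left out (160 without KO replicate 3 and 3 without WT replicate 3), and DESeq2 called 577. The stress genes called there were 3 by DESeq2, 0 with the replicate block and 0 in each of the 8 fits without 1 library. In crypts limma-voom called 7179 genes, 1798 genes passed when the log2 fold change had to reach 1 in size, and leaving out 1 library gave 2749 to 5005 genes and 13 to 17 stress genes. Within columns 1 to 3 there were 112 genes and 0 stress genes, within columns 4 to 6 6915 and 23, and without KO columns 4 to 6 924 and 6. The lower header numbers gave 27 and 0, the higher ones 6940 and 21. With column number above 3 as a term there were 4713 and 17, and with the header number set as a term 5186 and 18. For the difference between preparations the counts were 273 genes with no filter, 1457 by DESeq2 (11 stress genes), 4723 by limma-voom (19), 110 without crypt KO columns 4 to 6 (1), and 105 to 1419 genes and 0 to 12 stress genes with 1 library left out. In Caco-2 562 genes and 0 stress genes passed with that minimum size, the replicate block gave 5904 and 14, and leaving out 1 library gave 5162 to 5697 and 13 to 19. The causes of these shifts were not tested, beyond the smaller number of libraries in the fits that leave some out.

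Among single genes, the calls of Dnajb11 and Syvn1 in crypts were lost without the filter (edgeR adjusted p 0.0574 and 0.0791), that of Dnajb11 also with limma-voom (0.0513). Creb3 lost its call in spheroids with DESeq2-type size factors (0.0508), a 1 CPM filter (0.0528) and the replicate block (0.059). Replicate numbers did not pair the libraries: deviations of same-numbered libraries correlated at -0.03 to 0.098 in spheroids and 0.0033 to 0.044 in Caco-2. No paired analysis was possible in crypts because the columns carry no replicate label that matches the labels' numbers within a day. Depth did not limit most members, but Stc2 (at most 0.552 CPM in crypts), Cebpb and Atf5 rested on few counts there. Chac1, with the largest rise, was also low in WT crypts, at 0.604 to 4.17 CPM.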
